A study of Drosophila melanogaster with 24 samples.

Results

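The comparison described here sets whole su(Hw) null larvae against wild-type larvae. It rests on the 4 arrays, of 24 in the series, that were hybridised with RNA of su(Hw)/Df larvae, chosen by their genotype and tissue labels. The series measured transcript levels in Drosophila melanogaster on 2-colour long-oligonucleotide arrays, in whole larvae and in wing imaginal discs of 3 genotypes with 4 arrays each. On every larval array RNA of 1 genotype in one dye was set against RNA of a wild-type larval pool in the other dye. A value is the log2 of the ratio of genotype to pool, so that 1 stands for a 2-fold higher and -1 for a 2-fold lower signal in the genotype.

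In su(Hw)/Df larvae, a chromosome with the su(Hw)v allele and a CaS transposon (cas X/K in the labels) lay over the deletion Df(3R)ED5644, in a stock marked w. They were the non-Tubby offspring of a cross of the 2 balanced stocks. In su(Hw)/+ larvae the su(Hw)v chromosome lay over a wild-type one, and in Df/+ larvae the deletion did so. Both heterozygotes came from outcrosses to Oregon-R, the wild-type strain of the study. The genes that Df(3R)ED5644 removes were therefore present in 1 copy at most in su(Hw)/Df and in Df/+ larvae. Larvae were collected when they stopped moving, at the soft white pre-pupal stage, and 10 or 20 went into an extraction. The pool was a single RNA made from 18 wild-type collections by a large-scale extraction, and it was used on all larval arrays. Its own spread, and any difference in strain background or extraction between it and the mutants, cannot be told apart from the effect of the genotype. The sources used here do not give the sex of the larvae.

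Suppressor of Hairy-wing, Su(Hw), is a zinc finger protein that binds the insulator of the gypsy retrotransposon, where it can keep an enhancer from acting on a promoter on the other side. It works with the proteins Mod(mdg4) and CP190 and also binds many sites of the genome that hold no gypsy element. Flies without it live, and the females are sterile. A larva at the white pre-pupal stage has stopped feeding and is driven by ecdysone, the moulting steroid: its salivary glands have secreted the glue that fixes the animal, its midgut is about to be replaced, and its fat body holds the stores for metamorphosis.

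The 4 su(Hw)/Df arrays held values for 10604, 10541, 10231 and 9900 of 14444 analysed probes in replicates 1 to 4. The genotype was labelled with Cy3 in replicates 1 and 3 and with Cy5 in replicates 2 and 4. Array medians were 0.14 and 0.14 with the genotype in Cy3, and -0.04 and -0.13 with it in Cy5. Across probes the arrays of like orientation correlated best, at r = 0.719 over 9094 probes for replicates 1 and 3 and 0.555 over 8966 for replicates 2 and 4. Arrays of opposite orientation correlated at 0.438 to 0.544. With heterozygote arrays of the same orientation, the null arrays correlated at 0.363 to 0.682, so like values were not particular to the null. All of these ratios share the pool. Because each dye orientation has 2 arrays, a constant dye effect cancels in the mean of a probe with 4 values, and it does not in the 1452 of 9554 tested probes that had 3.

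Expression in su(Hw)/Df larvae differed from the wild-type pool in both directions and to about the same extent. Of 9554 probes with 3 or more su(Hw)/Df values, 2646 (27.7%) were called at an adjusted p under 0.05 by limma with Benjamini-Hochberg adjustment, 1383 (14.5%) higher and 1263 (13.2%) lower. The sign was the same on every array with a value for 2496 of the called probes, and the means of the 2 dye orientations had the same sign for 2644 of them. Most changes were small. The median size of a called log2 ratio was 0.66, with 262 probes at least 2-fold higher, 214 at least 2-fold lower, and 41 and 33 at least 4-fold. For a probe the SD between the null arrays had a median of 0.35. With 1 probe for each of 8086 genes, 14.9% were higher and 14% lower, and counts of gene lists below can be read against these shares.

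The spread of this test was estimated from all 12 larval arrays, and 1309 of the 2646 calls were kept whichever 1 of these arrays was left out. Each gene named below as risen or fallen is among those kept calls, except where its paragraph says otherwise. On the 4 null arrays alone limma called 719 probes higher and 641 lower.

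**Figure D1:**
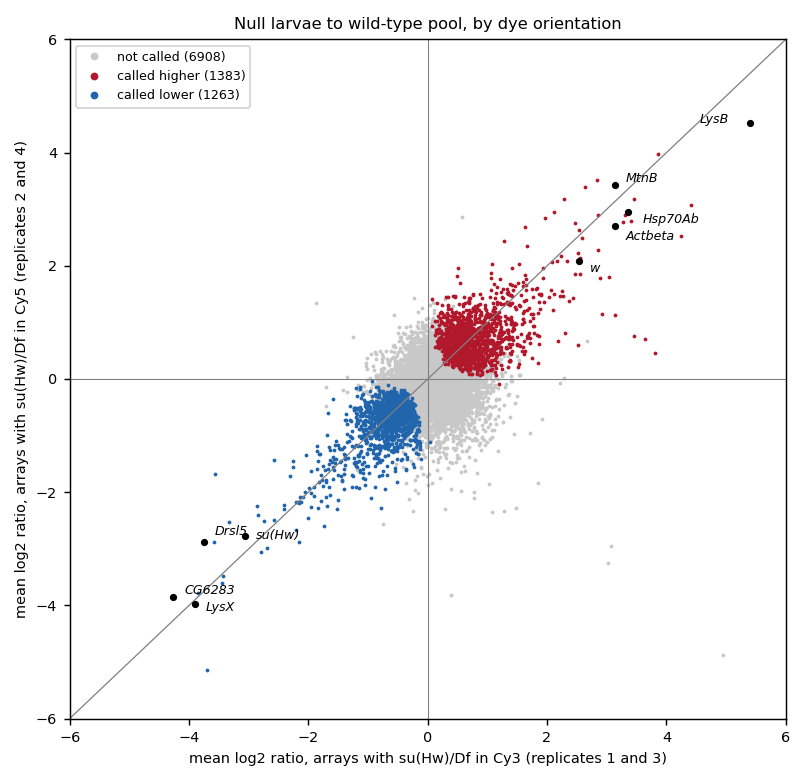
Mean log2 ratio of each tested probe on the su(Hw)/Df arrays with the genotype in Cy3 (x axis, replicates 1 and 3) and in Cy5 (y axis, replicates 2 and 4), with 1383 probes called higher in red, 1263 called lower in blue and 6908 not called in grey. Nearly all called probes lie in the quadrants where both orientations have the same sign, and some grey probes lie far out where the orientations oppose each other.

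The transcript of su(Hw) itself was at -2.77, -2.19, -3.36 and -3.36 in replicates 1 to 4 of su(Hw)/Df larvae, a mean of -2.92 ± 0.56 (SD, n = 4) or 7.56-fold lower than the pool (adjusted p = 3.78e-07). All 4 null arrays lay far below 0. The heterozygotes stood at -0.54 in su(Hw)/+ and -0.33 in Df/+ larvae, closer to the pool than any null array. The gene white (w), which encodes an eye pigment transporter and marks many transposons, rose to 2.42, 2.03, 2.64 and 2.13 in su(Hw)/Df larvae, with means of 0.65 in su(Hw)/+ and 1.12 in Df/+. Whether transposon copies of w gave part of this signal was not tested.

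Among probes with 4 null values of the same sign, the 10 highest were those of a digestive lysozyme, 3 copies of Hsp70, a metallothionein and 5 other genes. LysB, a lysozyme gene expressed in the midgut, was at 4.88, 4.78, 5.94 and 4.28 in replicates 1 to 4, with a mean of 4.97 ± 0.70 (SD, n = 4; adjusted p = 1.05e-06). It was the highest of the 10 on every null array, and it also stood at 3.06 in su(Hw)/+ and 2.87 in Df/+ larvae. The metallothionein gene MtnB, whose product binds metal ions, had the tightest values of the 20 genes at either extreme, at 3.19, 3.53, 3.10 and 3.31 (SD 0.19), next to 0.88 in su(Hw)/+ and 0.58 in Df/+. Its lowest null value lay above its highest heterozygote value of 1.24.

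Hsp70Bbb, Hsp70Ab and Hsp70Ba encode near-identical copies of the main heat-inducible chaperone, so their probes may not tell the copies apart. Hsp70Ab was at 3.54, 2.50, 3.19 and 3.41 in su(Hw)/Df larvae, with means of -0.19 in su(Hw)/+ and 1.24 in Df/+. The Hsp70Bbb and Hsp70Ba probes gave null means of 3.32 and 3.03, and on all 3 probes replicate 2 was the lowest of the null arrays. GILT3, which belongs to a family of lysosomal thiol reductases, was at 3.09, 2.82, 3.52 and 2.99, and Hsdl2, whose product resembles hydroxysteroid dehydrogenases, at 3.64, 2.49, 3.17 and 3.11. Both genes had high heterozygote means as well, GILT3 1.95 in su(Hw)/+ and 1.96 in Df/+, and Hsdl2 1.79 in su(Hw)/+ and 1.85 in Df/+. CG13575 and CG32041 varied more between null arrays than the others. CG13575 was at 4.39, 2.12, 4.43 and 4.03, with replicate 2 far below the rest, and CG32041 was at 4.14 and 4.35 with the genotype in Cy3 and at 2.63 and 2.43 with it in Cy5. CG13962 went the other way with the dyes, at 2.72 and 2.94 in Cy3 and 3.49 and 3.54 in Cy5.

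**Figure D2:**
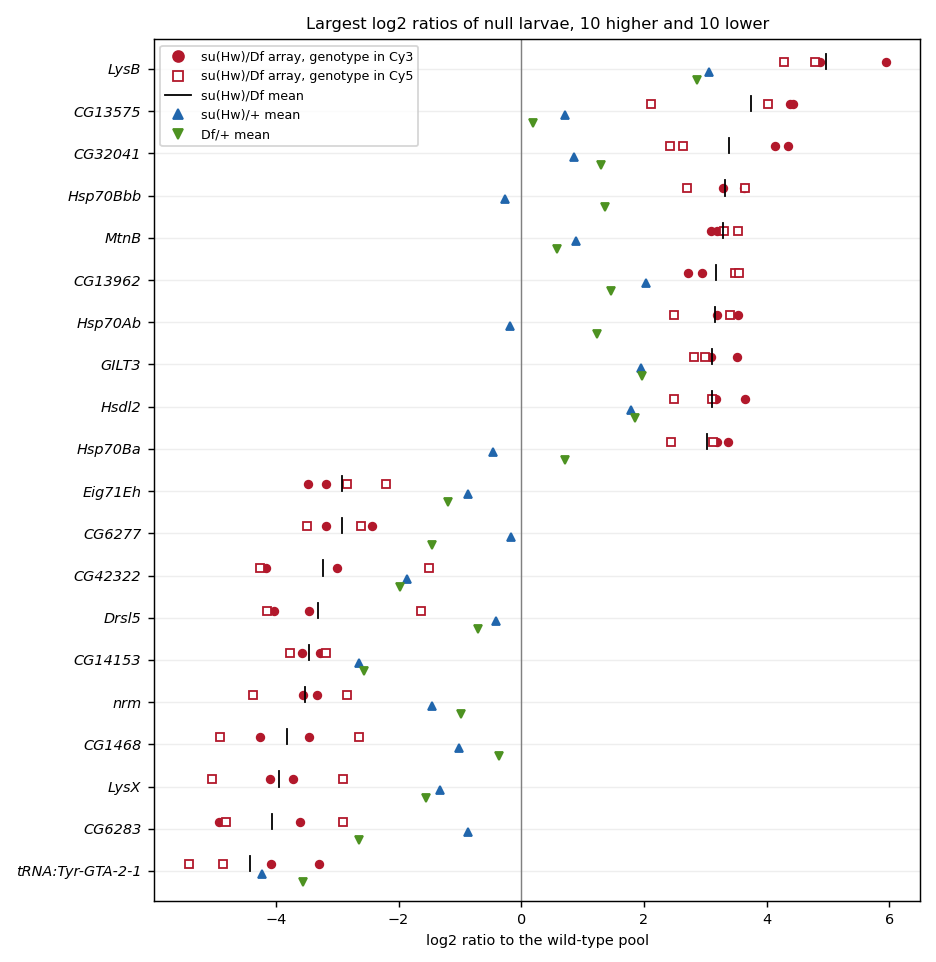
Log2 ratios to the wild-type pool (x axis) of the 10 highest and 10 lowest genes of su(Hw)/Df larvae with 4 values of the same sign: red circles and open red squares are single null arrays with the genotype in Cy3 and Cy5, the black bar is their mean, and triangles are the means of su(Hw)/+ (blue) and Df/+ (green) larvae. For 15 of the 20 genes every null array lies outside the range of the heterozygote arrays, and the tRNA gene at the bottom is about as low in the heterozygotes as in the null.

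Among the 10 genes with the lowest means were a lysozyme, a pair of lipases, a relative of an antifungal peptide gene and a late-puff gene. LysX, a lysozyme gene of the midgut, was at -3.71, -2.91, -4.10 and -5.05 in replicates 1 to 4 (mean -3.94 ± 0.89, SD, n = 4; adjusted p = 3.13e-07), with means of -1.32 in su(Hw)/+ and -1.55 in Df/+. It thus moved opposite to LysB. The lipase gene CG6283 was at -3.60, -2.91, -4.93 and -4.82 and its relative CG6277 at -2.43, -2.61, -3.17 and -3.49 in su(Hw)/Df larvae. Both were nearer to the pool in su(Hw)/+ (-0.86 and -0.16) than in Df/+ larvae (-2.64 and -1.46).

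CG1468 was at -3.46, -2.65, -4.25 and -4.91, next to -1.02 in su(Hw)/+ and -0.37 in Df/+. For nrm (neuromusculin), an adhesion protein gene, the null arrays gave -3.56, -2.84, -3.33 and -4.37, all below the lowest heterozygote array at -2.19. A second probe of nrm had a mean of -0.41 that did not pass. Drsl5, a relative of the antifungal peptide gene Drosomycin, was at -3.46, -1.63, -4.03 and -4.15, so that replicate 2 was much nearer to the pool than the others. CG42322 had the widest spread of the 20, with -3.01, -1.51, -4.16 and -4.26 (SD 1.28), and its null arrays overlapped the heterozygotes, which had means of -1.86 in su(Hw)/+ and -1.97 in Df/+. The late-puff gene Eig71Eh, an ecdysone-induced gene of the salivary gland, was at -3.17, -2.84, -3.48 and -2.21.

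Other genes of the 10 were low in the heterozygotes too. The probe of tRNA:Tyr-GTA-2-1 had the lowest mean of all, at -4.08, -4.86, -3.30 and -5.42 (mean -4.42), but it was also at -4.23 in su(Hw)/+ and -3.55 in Df/+ larvae. CG14153 was at -3.28, -3.19, -3.57 and -3.77, with -2.64 in su(Hw)/+ and -2.56 in Df/+. These ratios all share the pool.

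Other genes changed in the null and had values near 0 in both heterozygotes. A rule set after the values were seen (a called mean of 1 or more in size with 4 values of the same sign, and both heterozygote means under 0.3 in size) found 29 probes, 9 higher and 20 lower. Of the higher ones, Actbeta, CG9813, CG1092, Nlg2, Drep2, CG32432 and CG3104 had only 1 or 2 values in su(Hw)/+. Every lower probe had 3 or 4 values in each heterozygote. Actbeta, which encodes an activin ligand, rose to 3.59, 2.45, 2.69 and 2.97 (mean 2.93), next to 0.01 in su(Hw)/+ with 2 values and 0.07 in Df/+. CG9813 was at 2.11, 2.42, 2.81 and 3.11 in the null and at 0.23 in su(Hw)/+ and 0.29 in Df/+, with 2 and 3 values. CG7191 was at 2.16, 2.18, 1.77 and 3.49, with -0.30 in su(Hw)/+ and -0.16 in Df/+. Listericin, an immune-induced gene, belonged to the group too, but its null arrays ran from 0.07 in replicate 4 to 3.47 in replicate 2. Drep2, a DNA fragmentation factor relative, was the single one of the 29 that lost its call when certain single arrays were left out.

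The 20 lower probes of that group included 5 gut protease or immune peptide genes described below. CG14062 fell to -1.66, -1.94, -1.76 and -2.21, with 0.07 in su(Hw)/+ and -0.08 in Df/+. Agpat2, an acyltransferase of phospholipid synthesis, was at -1.50, -2.04, -2.04 and -1.53 in the null, and Mcr, which encodes a protein of the complement family found at epithelial junctions, at -0.88, -1.38, -1.21 and -0.63. The null values of wun, a lipid phosphate phosphatase that guides germ cells, were among the most even, at -1.02, -1.03, -1.14 and -0.81. CG8661 was uneven, between -1.16 in replicate 2 and -3.84 in replicate 4.

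Genes were then grouped into 43 lists by tissue, pathway or family, with 1 probe per gene. The lists and their members were chosen with earlier results of these data known. Their shares therefore describe these genes and are no independent test against all genes. Among lists with 5 or more tested genes, those of sugar metabolism, amylases and maltases, chaperones, and blood cells had the largest shares of genes called higher, and the histone, trypsin and antimicrobial peptide lists the largest shares called lower. In this whole-body RNA, fewer cells of a type and less RNA per cell cannot be told apart.

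**Figure D3:**
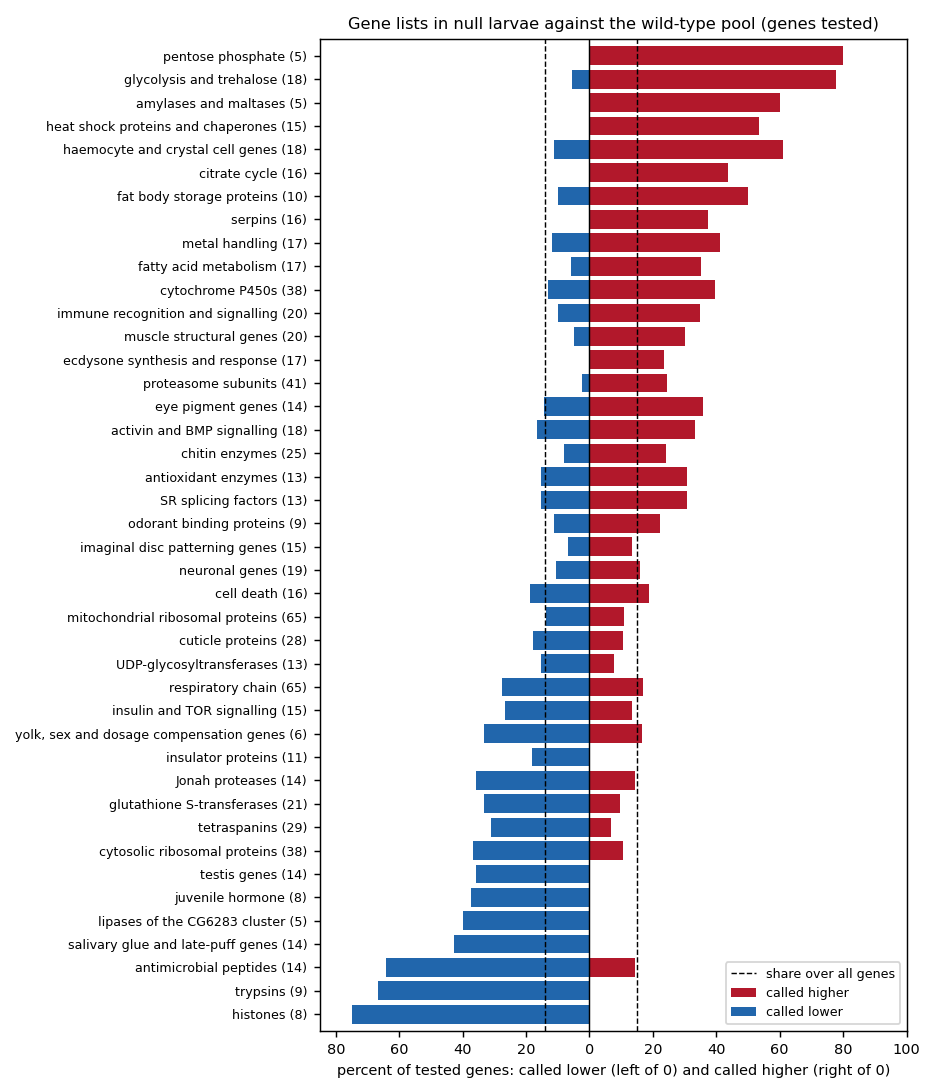
Percent of the tested genes of each list that were called higher (red, right of 0) and lower (blue, left of 0) in su(Hw)/Df larvae, for the 42 lists with 5 or more genes tested, whose number is in parentheses. Dashed lines mark the shares over all 8086 genes, 14.9% higher and 14% lower.

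Genes of sugar breakdown rose together. Of 18 genes of glycolysis and trehalose metabolism 14 rose and 1 fell, with a median of 0.86 beside 0.03 over all probes tested, and 9 of the 14 kept the call whichever array was left out. Pgm1 (phosphoglucomutase) was at 1.46, 2.42, 1.81 and 1.26 in replicates 1 to 4, PyK (pyruvate kinase) at 1.92, 1.62, 1.39 and 1.16, and Tpi (triose phosphate isomerase) at 1.28, 2.16, 1.53 and 0.75. No null array of these probes was near 0, and replicate 4 was the lowest for all 3. Another probe of Tpi had a mean of 0.11 and was not called. Tps1, which makes trehalose, the blood sugar of insects, was at 1.59, 2.15 and 1.86 in replicates 1 to 3 but at 0.14 in replicate 4. Ald1, Pgk, Ldh, Eno and Gapdh1 had means of 0.72 to 1.38.

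The heterozygotes had medians of 0.52 in su(Hw)/+ and 0.47 in Df/+ over the same 18 genes. PyK had a null mean of 1.52 next to means of 1.31 in su(Hw)/+ and 1.06 in Df/+, whereas Tpi had one of 1.43 next to 0.49 in su(Hw)/+ and 0.05 in Df/+. Treh, the enzyme that splits trehalose, was the gene that fell, to -0.53, -0.56, -0.71 and -0.29 in the null (adjusted p = 0.00676), and it was not called on the null arrays alone. The hexokinase gene Hex-A had a mean of -0.36 that did not pass.

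Of 16 genes of the citrate cycle and its malic enzymes 7 rose and none fell, with a median of 0.41. Men (malic enzyme) was at 1.17, 1.82, 0.96 and 1.74, Idh3g, a subunit of the mitochondrial isocitrate dehydrogenase, at 0.65, 1.54, 0.70 and 1.17, and Mdh1, the cytosolic malate dehydrogenase, at 0.81, 1.52, 0.80 and 0.86. For each of the 3 the highest value came from replicate 2. Fum1 (fumarase) had a mean of 0.81. The succinate dehydrogenase subunits SdhB, SdhC and SdhD had means between -0.08 and 0.31 that did not pass.

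In the pentose phosphate pathway, which supplies NADPH, 4 of 5 genes rose, 3 without replicate 1, 2 or 4 of the null and 2 without replicate 3. Pgd (phosphogluconate dehydrogenase) was at 1.51, 1.07, 1.68 and 1.06, close to its means of 1.01 in su(Hw)/+ and 1.15 in Df/+. Of 17 genes of fatty acid metabolism 6 rose and 1 fell. Mtpbeta, of mitochondrial fatty acid oxidation, was at 1.52, 0.67, 1.36 and 1.08 and ScpX, a peroxisomal thiolase relative, at 1.43, 1.34, 1.50 and 0.64. The gene that fell was mdy, a diacylglycerol acyltransferase of fat storage, at -0.66, -1.14, -0.67 and -0.66.

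**Figure D4:**
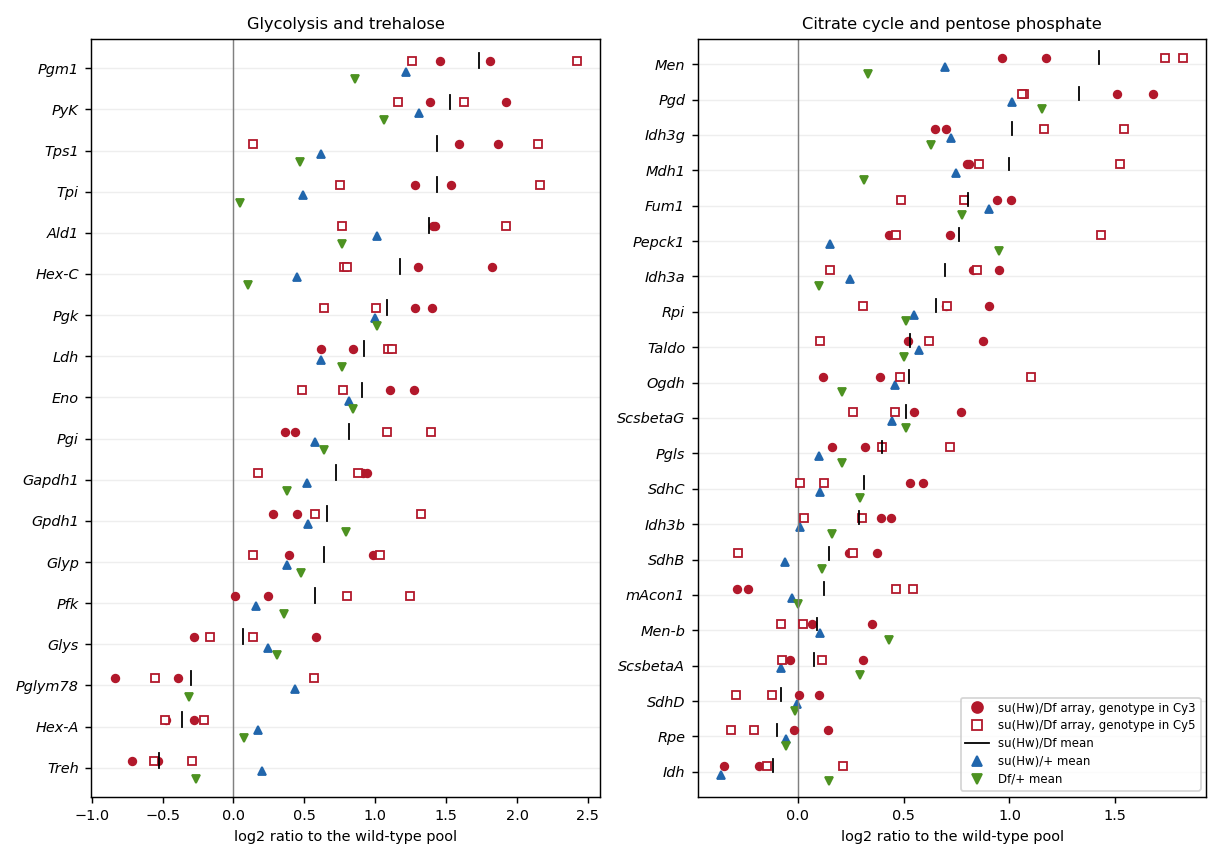
Log2 ratios to the wild-type pool (x axes) of the tested genes of glycolysis and trehalose metabolism (left) and of the citrate cycle and the pentose phosphate pathway (right), with symbols for single null arrays, null means and heterozygote means as in the key. Most means lie right of 0, from 1.74 for Pgm1 to -0.53 for Treh, and the heterozygote means mostly lie between 0 and the null mean.

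Of 65 respiratory chain genes, by contrast, 11 rose and 18 fell, with a median of -0.16. The heterozygotes had medians of -0.26 in su(Hw)/+ and -0.19 in Df/+ over these genes. Whichever array was left out, 4 of the 11 and 4 of the 18 kept the call. The counts depended on single null arrays, with 5 higher and 7 lower without replicate 1, 5 and 12 without replicate 2, 7 and 14 without replicate 3, and 8 and 11 without replicate 4. RFeSP, the iron-sulfur subunit of complex III, was at 2.40, 2.30, 2.03 and 0.63 and ATPsynB, a stalk subunit of ATP synthase, at 0.86, 1.07, 0.64 and 0.69. Of the genes that fell, ox, a small subunit of complex III, was at -1.14, -1.59, -1.29 and -1.41. ATPsynE, which lies 3 measured genes from su(Hw), was at -1.46, -0.90, -1.08 and -1.49, with -0.40 in su(Hw)/+ and -1.07 in Df/+. ATPsynGL and COX7AL, whose names mark them as relatives of a standard subunit, were at -1.35 and -0.84 in the null, and at -1.30 and -1.23 in su(Hw)/+.

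Cytosolic ribosomal protein genes fell more often than they rose, with 14 of 38 lower and 4 higher and a median of -0.26, close to the medians of -0.31 in su(Hw)/+ and -0.33 in Df/+. RpS28b was even across the null arrays, at -0.78, -0.88, -0.64 and -0.79. RpL28 was lower, at -1.70, -1.69, -1.09 and -2.20, and lower still in Df/+ (-2.36), while its other probe had a mean of 0.24 and did not pass. Mitochondrial ribosomal protein genes were called about as often as other genes, with 7 higher and 9 lower of 65, and 2 higher and 6 lower without null replicate 1, 2 and 8 without replicate 2, 4 and 6 without replicate 3, and 8 and 3 without replicate 4. All 5 canonical histone genes with a probe on the 2L cluster fell, as did His4r. His4:CG31611 was at -1.34, -1.41, -1.16 and -2.03 in the null and at -1.74 in su(Hw)/+ and -1.19 in Df/+. The call of His3:CG31613 (mean -0.90) was lost without null replicate 2 or 4. Each histone probe can read the many tandem copies of its gene.

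Many stress and metal genes rose in the null. Of 15 chaperone genes 8 rose and none fell, 6 of them whichever array was left out. Over the 15 genes the median was 0.42 in the null, 0.05 in su(Hw)/+ and 0.46 in Df/+. Beside the Hsp70 copies, Hsp68 was at 2.63, 2.56, 3.08 and 3.23 and the small heat shock gene Hsp26 at 1.42, 0.70, 1.39 and 1.23. The heterozygote means of Hsp68 were 0.27 (su(Hw)/+) and 1.10 (Df/+), and those of Hsp26 were 1.16 and 0.46. The co-chaperone gene stv was at 1.43, 0.80, 1.81 and 0.53.

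Of 17 genes of metal handling 7 rose and 2 fell. Their median of 0.27 in the null was below the medians of 0.43 in su(Hw)/+ and 0.41 in Df/+. ZnT35C, a zinc transporter, was at 1.83, 1.77, 1.84 and 1.46 in the null, with 0.22 in su(Hw)/+ and 0.54 in Df/+. Irp-1B, an iron regulatory protein of the aconitase family, was at 1.85, 1.40, 2.01 and 2.52, with 1.33 in su(Hw)/+ and 1.25 in Df/+. Tsf1 (transferrin) was at 1.24, 1.27, 1.04 and 0.60, and MtnD at 1.31, 2.24, 0.90 and 1.11. The metallothionein gene MtnC had 1.33, 1.90 and 2.08 in replicates 1 to 3 but -0.46 in replicate 4, and lost its call (mean 1.21, adjusted p = 0.0305) in 3 of the leave-one-out fits. MtnA did the opposite of its relatives: it was at -0.35, -0.26, -0.47 and -0.58 in the null and lower in su(Hw)/+ (-1.27) and Df/+ (-0.98), and its call was lost in 1 of those fits. Ho (haem oxygenase) fell to -0.97, -0.94, -1.28 and -0.74.

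Detoxification families split. Of 38 cytochrome P450 genes, oxidases of hormones and foreign compounds, 15 rose and 5 fell. Cyp6a13 was at 2.35, 3.04, 2.82 and 1.93 and Cyp12a4 at 2.16, 2.49, 2.49 and 1.67, the second about as high in su(Hw)/+ (2.60) and Df/+ (2.23). Cyp309a1 had 3 values of 2.87, 2.28 and 3.50. Cyp6d5, near su(Hw), fell evenly to -2.33, -2.53, -2.82 and -2.47, and Cyp312a1 to -1.41, -1.90, -2.01 and -1.76. Of 21 glutathione S-transferases 7 fell, 2 rose and 12 did not pass. GstZ1 was at -2.05, -1.46, -2.27 and -2.92 and GstD10 at -1.70, -2.51, -2.71 and -1.85, and GstD1 was even, at -0.73, -0.89, -0.74 and -0.82. GstT4 rose to 1.50, 0.90, 1.30 and 1.21. Of 13 UDP-glycosyltransferase genes Ugt49B1 was at -1.77, -1.93, -1.91 and -2.63 and Ugt301D1 at -1.04, -1.50, -1.34 and -1.45. Among 13 antioxidant genes cnc, the factor that switches on oxidative stress genes, had a mean of 0.76 and Trxr1 (thioredoxin reductase) of 0.73, whereas Sod3, an extracellular superoxide dismutase, fell to -0.82, -1.05, -0.61 and -0.86.

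Trypsin genes of the midgut fell, and its other enzyme genes moved both ways. All 6 called genes of 9 trypsin-type proteases were lower, and all 6 kept the call whichever array was left out. The trypsin-like gene yip7 was at -2.15, -2.70, -2.18 and -3.05 and alphaTry at -1.61, -1.61, -1.69 and -2.47. Over the 9 genes the median was -1.03 in the null, -0.06 in su(Hw)/+ and -0.25 in Df/+. Of 14 Jonah proteases 5 fell, among them Jon74E at -1.46, -2.19, -1.57 and -2.42, and Jon25Biii rose to 1.57, 1.69, 0.82 and 0.66. The other Jonah gene that rose, Jon99Ci, was at -0.05 in replicate 4 and lost its call without null replicate 1, 2 or 3, while 4 Jonah genes were higher without replicate 4. Of 5 amylase and maltase genes 3 rose, with Mal-A6 at 0.92, 0.56, 0.87 and 0.95. Of the midgut markers, Jon65Aiii, Jon65Aiv, alphaTry, betaTry and LysX were lower and LysB higher.

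Immune peptide genes were low while genes of immune cells were high. Of 14 antimicrobial peptide genes 9 fell and 2 rose, with a median of -1.28. Mtk (Metchnikowin) was at -2.23, -1.32, -2.27 and -1.78, Drs (Drosomycin) at -1.93, -1.09, -2.59 and -1.81, and Drsl4 at -3.25, -1.07, -3.89 and -2.27. Replicate 2 was the highest null array for all 3, as for Drsl5 above. In su(Hw)/+ larvae Drs was at 0.09 and Mtk at -0.89, and in Df/+ larvae they were at -0.61 and -1.72. The Bomanin genes BomS1 and BomS2, short peptides induced by the Toll pathway, had null means of -1.43 and -1.64 and were about as low in su(Hw)/+ (-1.31 and -2.19). AttD, an attacin, rose on its 3 arrays, to 0.80, 1.64 and 0.95. Without null replicate 4 a single gene of the list was higher.

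Of 18 haemocyte and crystal cell genes 11 rose and 2 fell, with a median of 0.93, and 9 of the 11 kept the call in every leave-one-out fit. A single gene of the list was lower without null replicate 1 or 3. PPO2 and PPO1, the prophenoloxidases that crystal cells make for melanin, were at 2.32, 2.66, 3.76 and 0.96 and at 2.56, 2.28, 3.20 and 1.29. Replicate 3 was the highest and replicate 4 the lowest for both. PPO2 was also high in su(Hw)/+ (2.15) and less so in Df/+ (0.75), and PPO1 was at 1.15 and 0.05. The clotting gene fon was at 1.78, 2.00, 2.01 and 0.98 and Pxn (peroxidasin) at 1.16, 0.98, 1.56 and 1.13. The nimrod genes NimB2, NimB4, NimC1 and NimC2, phagocytosis receptors and their relatives, had means from 0.99 to 1.66. Hml, the haemocyte marker, did not pass.

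Of 20 genes of immune recognition and signalling 7 rose and 2 fell. Socs36E, a target and inhibitor of the JAK/STAT pathway, was at 2.49, 1.76, 2.02 and 1.34, with 0.33 in su(Hw)/+ and 0.57 in Df/+. GNBP3, a receptor for fungal glucans, was even at 1.23, 1.31, 1.20 and 1.39. PGRP-LA was at 1.39, 0.92, 1.37 and 1.70 and at 1.77 in su(Hw)/+, but at -0.19 in Df/+. The Toll ligand gene spz fell to -1.05, -1.10, -1.10 and -1.84. Of 16 serpins, inhibitors of serine proteases, 6 rose and none fell, with Spn43Ab at 1.21, 2.09, 1.45 and 1.09 and Spn88Eb at 0.96, 0.65, 0.96 and 1.15. The serpin median was 0.36 in the null, 0.57 in su(Hw)/+ and 0.32 in Df/+.

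Genes of the main storage proteins of the fat body rose. The larval serum proteins Lsp1alpha (1.18, 2.62, 1.58 and 0.72), Lsp1beta (1.07, 1.70, 1.24 and 0.65) and Lsp2 (1.25, 0.96, 1.63 and 0.94), which store amino acids for metamorphosis, were positive on every null array. Their heterozygote means were 1.96, 0.65 and 0.46 in su(Hw)/+ and 0.34, 0.24 and 1.10 in Df/+. The lipin gene Lpin, needed for fat body lipid storage, fell to -0.38, -1.01, -0.74 and -0.70. In all, 5 of 10 genes of this list rose and 1 fell.

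The muscle list held 20 tested genes, of which 6 were higher and 1 was lower. Mhc (myosin heavy chain) was at 2.44, 2.39 and 2.51 in replicates 1 to 3 and at 1.33 in replicate 4, and Mlp84B, a muscle LIM protein gene, at 2.10, 1.84, 2.12 and 1.18. The troponin T gene up was at 1.44, 1.38 and 1.56 in replicates 1 to 3 but at 0.11 in replicate 4. Mf (myofilin) went the other way on its called probe, at -0.92, -0.65, -0.96 and -1.41, and had a mean of 0.37 on another probe that was not called.

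Of 14 glue and late-puff genes of the salivary gland 6 fell and none rose. Eig71Ei was at -2.63, -2.28, -3.07 and -2.54 and Pig1 at -2.33, -1.37, -3.38 and -3.11. The glue genes Sgs4 (-2.15, -1.05, -1.35 and -4.16) and Sgs5 (-1.18, -0.65, -1.13 and -3.20) were much lower in replicate 4 than in the other null arrays. Of 17 genes of ecdysone synthesis and response 4 rose and none fell. ImpL1, an ecdysone-induced gene of disc eversion, was at 2.48, 1.29, 1.37 and 2.28, Eip78C, a nuclear receptor of the ecdysone cascade, at 0.93, 0.90, 0.99 and 1.07, and sad (shadow), a P450 enzyme of ecdysone synthesis, at 1.36, 0.91, 1.13 and 0.70. Jhbp2 and Jhbp1, genes of juvenile hormone binding proteins that lie next to each other, fell to means of -1.65 and -1.60.

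In the cuticle protein list most genes had too few values, with 28 of 116 tested, 3 higher and 5 lower. Without null replicate 4 there were 5 higher and 4 lower, and without replicate 1 or 3 only 2 were higher. Cpr49Ag had the most even values of any gene described, between -2.04 and -1.94 on all 4 arrays (adjusted p = 1.12e-07), with -0.61 in su(Hw)/+ and -0.72 in Df/+. Lcp65Ab2 had 3 values of 3.74, 3.98 and 3.99. Of 25 chitin genes Idgf6, a chitinase-like growth factor, rose to 1.20, 2.45, 1.64 and 1.48, and the chitinase gene Cht2 fell to -0.62, -0.80, -0.98 and -1.61.

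Markers of single tissues were counted as well. All 5 tested fat body markers rose, as did 4 of 5 haemocyte and crystal cell markers and 3 of 6 muscle markers. In contrast, 5 of 6 midgut and 2 of 4 salivary gland markers fell, and none of 4 nervous system markers was called. Of the epidermis and cuticle markers 1 of 2 fell, and of the testis markers 2 of 4 fell. The ring gland and female sets had 1 tested marker each, and both rose. Marker means ran from 0.54 to 1.52 for fat body, 0.44 to 2.42 for haemocytes and crystal cells, 0.32 to 2.17 for muscle, -3.94 to 4.97 for midgut and -2.18 to 0.25 for salivary gland. These markers are in part the genes described above, and the part of tissue proportions in the results was not tested.

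Genes that differ between the sexes moved as well. Yp3, a yolk protein gene of females, was at 2.47, 1.83, 2.39 and 1.03 in the null, with 0.93 in su(Hw)/+ and 0.40 in Df/+. The RNAs roX1 and roX2, which coat the male X chromosome for dosage compensation, were at -1.22, -1.19, -0.33 and -0.64 and at -2.02, -1.24, -0.69 and -0.71. They were as low or lower in the heterozygotes, at -1.32 and -1.81 in su(Hw)/+ and -0.98 and -1.40 in Df/+. The roX1 call was lost in 2 of the leave-one-out fits, without null replicate 1 or 2. Of 14 testis genes 5 fell and none rose, with 2 lower without null replicate 1 or 2 and 3 without replicate 3. The median of the 14 was -0.34 in the null, lower in su(Hw)/+ (-0.93) and similar in Df/+ (-0.32). The part of the sex of the larvae in these values was not tested.

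Signalling genes moved both ways. Of 18 activin and BMP genes 6 rose and 3 fell, but only 2 were higher without null replicate 2. Beside Actbeta, dpp, the main BMP ligand, rose to 0.98, 1.05, 0.70 and 0.43, with 0.65 in su(Hw)/+ and 0.59 in Df/+. The receptor gene put, near su(Hw), fell to -0.92, -0.31, -1.22 and -1.26, next to -0.30 in su(Hw)/+ and -1.21 in Df/+. Of 15 insulin and TOR genes 2 rose and 4 fell, with 2 lower without null replicate 1 and 1 without replicate 2 or 3. ImpL2, a secreted inhibitor of insulin-like peptides, had a mean of 0.79 on the probe with most values, and Tsc1, a brake on TOR signalling, of 0.78. Of 16 cell death genes 3 rose and 3 fell, with 5 lower without null replicate 1. The caspase gene Drice fell evenly, to -1.19, -0.88, -0.97 and -0.89, with 0.33 in su(Hw)/+ and 0.04 in Df/+, and morgue, a ubiquitin ligase relative that promotes cell death, rose to 1.90, 0.69, 1.67 and 0.92. Of 13 SR splicing genes 4 rose and 2 fell, with 1 lower without null replicate 1 or 2. Among them B52 rose to 1.05, 1.53, 0.46 and 1.45, although 2 of its 4 probes, with means of 0.03 and 0.28, were not called.

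Of 41 proteasome genes 10 rose modestly and 1 fell, 9 of the 10 whichever array was left out. Rpt1, an ATPase of the regulatory particle, was at 0.66, 1.11, 0.66 and 0.99 and Rpt2 at 0.66, 0.76, 0.49 and 0.73, with 0.73 and 0.74 in su(Hw)/+ and 0.66 and 0.59 in Df/+. On the null arrays alone 6 were higher. The gene called lower, Prosalpha2, was not called without null replicate 1, 2 or 4, and 2 genes were lower without replicate 3. Of 29 tetraspanins, membrane proteins with 4 passes, 9 fell and 2 rose. Tsp42Er (-0.87, -1.32, -0.90 and -1.10) fell and Tsp42Ep (1.31, 1.46, 1.60 and 1.07) rose, though both lie in the same cluster on 2R. Of 9 tested odorant binding protein genes Obp99c rose evenly, to 1.19, 1.16, 1.15 and 1.05, with 1.05 in su(Hw)/+ and 0.17 in Df/+.

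Of 11 insulator protein genes su(Hw) and Ibf2 fell and none rose. Ibf2 was at -0.77, -0.07, -0.41 and -0.74 in the null, lower still in Df/+ (-1.01), and lost its call without null replicate 1 or 4. The gene mod(mdg4), which makes many proteins by trans-splicing, was covered by 20 probes. Their null means ran from -0.41 to 0.39, and 17 were not called. A pair of probes was called lower and 1 higher, each with an adjusted p above 0.02, and all 3 calls were lost in some leave-one-out fits.

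Along the chromosomes the calls were uneven. Of 1298 tested probes on the X 18.3% were higher and 9.09% lower, with a median of 0.14, and 53 probes on chromosome 4 had a median of -0.35. On chromosome 4 the 4 null arrays had medians of -0.36, -0.32, -0.40 and -0.35, so that all lay well below the medians of the other arms. There 18 probes were lower and a single one, that of Actbeta, was higher. The heterozygotes were alike, with chromosome 4 medians of -0.36 in su(Hw)/+ and -0.40 in Df/+ and X medians of 0.19 and 0.09. Arms 2L, 2R, 3L and 3R had null medians between -0.02 and 0.05.

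Runs of neighbouring measured genes called in the same direction held 4 or more genes in 15 cases, 5 higher and 10 lower. Over all 8086 genes 14.9% were higher and 14% lower, and how many runs such shares alone would give was not worked out. The longest, with 7 genes, ran from CG31533 to CG14840 on 3R near su(Hw), where CG3199 had the lowest mean (-1.78). The run of Cyp6d5, CG3061, CG9922, foxo, Npc2b and CG9920 lay near it. The other runs of 6 genes held mostly related genes. On 2L, NimB2, NimB4, NimB5, NimC1 and NimC2 with rk were higher, and the histone cluster was lower. On 2R, etaTry, alphaTry, epsilonTry, betaTry and gammaTry with CG13202 were lower. In these runs the calls of NimB5, rk, CG13202, CG31533, CG14840 and His3:CG31613 were lost in some leave-one-out fits. On the X, CG16903, csw, D2hgdh and Pgd rose side by side, and the call of csw was lost in 1 fit. D2hgdh, an enzyme of hydroxyglutarate breakdown, was at 1.80, 2.11, 1.82 and 1.08. Probes of related neighbours can read each other's transcripts.

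Around su(Hw) most genes were low. Of the 20 nearest measured genes, 10 on each side, 13 were lower and 1 higher, and 19 had a null mean below 0. They had a median of -0.75 for the null, -0.20 for su(Hw)/+ and -0.70 for Df/+ larvae. In Df/+ larvae, which carry the same deletion, all 20 had means below 0. The exception in the null was Polr2I, an RNA polymerase II subunit gene that lies next to su(Hw): it was at 0.80, 0.65, 1.29 and 1.15 in the null and 1.28 in su(Hw)/+, but at -0.71 in Df/+. Larvae of su(Hw)/Df and su(Hw)/+ carry the su(Hw)v chromosome with its transposon. For its GFP strain, the paper names the transposon on such a chromosome after this gene, under an older gene name. Whether a transposon copy of Polr2I gave part of this signal was not tested. Which of these genes Df(3R)ED5644 removes was not analysed here.

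**Figure D5:**
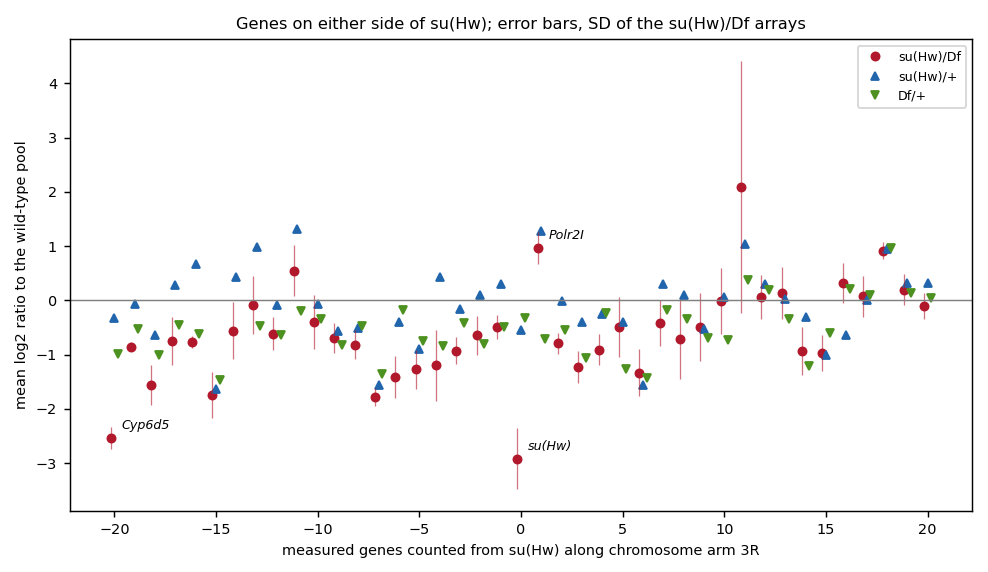
Mean log2 ratio to the wild-type pool (y axis) of su(Hw) and of the 20 measured genes on each side of it in gene order (x axis), for su(Hw)/Df (red circles, with the SD of the null arrays as bars), su(Hw)/+ (blue) and Df/+ (green) larvae. Red and green points lie mostly below 0 within 10 genes of su(Hw), with medians of -0.75 and -0.70, while blue points scatter around -0.20.

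Few genes were measured mostly in the null. Of the analysed probes 25 had values on all 4 null arrays and on at most 2 of 8 heterozygote arrays, of which CG3117, Drep2 and CG32432 were called higher and CG2217 lower. The calls of Drep2 and CG2217 were lost in 3 leave-one-out fits each. The reverse, at most 1 null value and all 8 heterozygote values, was found for 8 probes. Where a gene had several probes, often only some of them were called. Of 339 such genes 138 had a called probe, and 28 had all probes called in the same direction. Only CG1637, CG3625, fabp and mod(mdg4) had probes called in both directions. Differences between the probes of a gene were not tested.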

How the data were processed

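RNA of whole larvae was labelled by direct incorporation of Cy3 or Cy5 into cDNA from 50 µg of total RNA. The deposited values are log2 ratios of genotype to wild-type pool, 1 for each spot and array, made by the authors, who found spots with Dapple and normalized the slides with VSN (no versions are given in the sources used here). The dye swaps were already turned, and su(Hw) was negative on null arrays of both orientations. Intensities were not used here, so signal over background is unknown, and the number of arrays limits the precision. The arrays are described as independent biological replicates.

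Of 15158 probes 714 printed in 3 or 4 spots were left out as controls. Of the 14444 others 12658 had 1 gene symbol (126 from the study's tables), 96 had several and 1690 had none. Gene names, arms and order came from the Release 6 gene table, matched for 12590 probes, and no coordinates were used.

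The mean of the 4 su(Hw)/Df arrays was tested against 0 with limma 3.58.1 (R 4.3.3), with a mean for each of 3 genotypes over the 12 larval arrays and Benjamini-Hochberg adjustment over 9554 probes with 3 or more null values (threshold 0.05). The study's methods name CyberT. The pool is 1 RNA, so its spread is left out of every p-value. An exact test of 4 values against 0 cannot pass the threshold. On simulated data 86 of 100 probes changed by 1 on the log2 scale were called. That simulation had independent noise, few changed probes, no dye effect and no spread of the pool. It therefore does not give the share of true changes found in the real data. Named genes were the 10 highest and 10 lowest with 4 values of the same sign, su(Hw), w, up to 3 called genes at each end of 43 lists (1 probe per gene, that with most values), and runs of 4 or more called neighbours. The members and lists were chosen with earlier results of these data known. The alternatives were the null arrays alone, a dye term, a replicate block, recentred arrays, other minimum numbers of values, control probes kept, robust moderation, a per-probe test and each array left out. Python 3.11.15 with pandas 2.3.3, numpy 2.4.6 and matplotlib 3.10.9 made the tables and figures.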

Additional observations from a re-analysis of the deposited data

Results flagged for a closer look

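For 12 of 226 named genes with 4 values, 1 null array stood far from the other 3, with a gap beyond Dixon's critical value for 4 values. Chance alone gives this in about 1 of 20 groups.

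Replicate 4 was the one apart for 8 genes. The muscle genes Mhc (1.33 against 2.39 to 2.51) and up (0.11 against 1.38 to 1.56) and the ribosomal protein gene RpS5b (0.44 against 1.19 to 1.29) were nearest to the pool there. The midgut genes alphaTry (-2.47 against -1.69 to -1.61) and LysS (-2.53 against -0.91 to -0.62), the antioxidant gene Prx6a (-1.22 against -0.55 to -0.43), the Toll ligand gene spz (-1.84 against -1.10 to -1.05) and the mitochondrial ribosomal protein gene mRpS11 (-1.42 against -0.56 to -0.39) were lowest there.

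Replicate 2 was the one apart for 4 genes: mdy (-1.14 against -0.67 to -0.66), myo, a ligand of the activin family (-0.22 against -0.62 to -0.59), GstE11 (0.78 against 0.41 to 0.42) and Mdh1 (1.52 against 0.80 to 0.86). Without replicate 4 the probe counts were 1305 higher and 1030 lower, and without replicate 2 they were 956 and 904.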

How the results depend on the processing

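None of the 2646 called probes changed sign in any alternative. The null mean moves only with recentring, with a null array left out, or with a dye term or block where a null value is missing. In the other alternatives the sign could not change. On the null arrays alone 719 probes were higher and 641 lower (1360 in all), and a plain per-probe test called 74 and 61 (135), with su(Hw) at -2.92 and an adjusted p of 0.0619. With 1 array left out, 1823 to 2629 probes were called, 925 to 1385 higher and 898 to 1244 lower, and su(Hw) ran from -3.16 to -2.77. Recentring the arrays on their medians, which lowers the null mean by 0.03, gave 1229 higher and 1281 lower and kept 2345 calls. Counts of the other alternatives stayed within 1.5 times. Of 247 named genes 39 lost their call on the null arrays alone, 7 with recentred arrays and 220 in the per-probe test. Spot medians could not differ, since each analysed probe has 1 spot, and the promoter search was not run.

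Same-numbered arrays of different genotypes always had the same dye orientation. Their deviations correlated at 0.04 to 0.52 (median 0.23), and those of arrays with the same dye and different numbers at 0.05 to 0.52 (median 0.25), so the number was not taken as a pairing. With the replicate number as a block 1697 probes were higher and 1532 lower, and with a dye term 1767 and 1621.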

Other observations

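A few probes followed the dye and not the genotype. CG6178 was at 5.40 and 4.49 in null replicates 1 and 3, where the genotype was in Cy3, and at -5.12 and -4.63 in replicates 2 and 4, where it was in Cy5, so that its mean was 0.04. The Df/+ arrays gave 3.78 and 2.18 in Cy3 and -5.51 and -3.84 in Cy5. Tmhs (3.83 and 2.32 against -3.72 and -2.19) and CR7448 (3.47 and 2.58 against -3.99 and -2.50) behaved alike on the null arrays. With a term for the dye, 1015 of 9554 probes had a dye effect at an adjusted p under 0.05 by limma, 151 of them among the called probes.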
